A study of Homo sapiens with 9 samples.

Results

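The genes examined were the 37 nuclear genes for human aminoacyl-tRNA synthetases, chosen by name from the 24344 genes of the count table. They were every gene whose symbol is an amino acid letter followed by ARS1 or ARS2, together with EPRS1, FARSA and FARSB. Of these genes, 20 make cytosolic enzymes and 17 make mitochondrial enzymes. Their transcripts were counted in 9 unstranded RNA-seq libraries of the established cell line MDA-MB-231, a human breast adenocarcinoma. The cells had received Compound Kushen Injection (CKI), which is made from the herbs Kushen and Baituling, Kushen injection alone, or Baituling injection alone for 48 h, with 3 libraries per treatment. CKI was given at 2 mg/mL of total alkaloid and the single injections at the equivalent dilution. All groups were treated (libraries of untreated cells were not analysed here), so each value below is a comparison between injections. VIM and CD44, which MDA-MB-231 cells express strongly, were at 336.3 to 2115.9 CPM and 604.3 to 907.1 CPM, while the hormone receptor genes ESR1 and PGR, which the line is known to lack, had 0 to 4 counts per library. CPM is the count of a gene at a common library size, after scaling of the library sizes by TMM.

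Aminoacyl-tRNA synthetases join each amino acid to its transfer RNA and so set which residue a codon is read as. The cytosol and the mitochondrion each need a full set of charged transfer RNAs, and most amino acids have a separate nuclear gene for each compartment. GARS1 and KARS1 are exceptions that serve both, and mitochondrial glutaminyl-tRNA is made indirectly, so there is no mitochondrial glutamine gene on the list. Several cytosolic enzymes are held in a multi-synthetase complex by the scaffold proteins AIMP1, AIMP2 and EEF1E1. Many cytosolic synthetase genes are known targets of ATF4, the transcription factor of the amino acid response, which binds the C/EBP-ATF response element.

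The promoters of the genes were read for that element, because it is the sequence that ties many synthetase genes to the amino acid response. RefSeq promoter windows on assembly GRCh38.p14, from 250 bases before to 50 after each start site, were at hand for 30 of the 37 genes. VARS1 and LARS1 were among the genes without a window. The core TGATGNAA, searched on both strands, was present for 8 of the 30 genes and in 3.62% of 35116 windows of all genes. A gene counted if any of its windows held the core, and the 30 genes had 39 windows. The gene count and the window share are thus in unlike units. CARS1, GARS1 and TARS1 also had a window without the core. Those 8 were the 7 cytosolic genes AARS1, CARS1, GARS1, IARS1, MARS1, NARS1 and TARS1 and the mitochondrial gene YARS2. The stretches around the core are shown on the strand of each gene with the core in capitals, and apart from NARS1 and YARS2 it lies there in the reverse orientation.
CARS1: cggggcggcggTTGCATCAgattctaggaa
IARS1: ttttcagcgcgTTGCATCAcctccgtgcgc
MARS1: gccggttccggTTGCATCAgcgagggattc
TARS1: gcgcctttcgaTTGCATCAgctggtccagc
AARS1: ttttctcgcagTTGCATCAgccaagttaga
GARS1: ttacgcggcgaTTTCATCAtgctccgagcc
NARS1: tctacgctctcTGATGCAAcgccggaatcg
YARS2: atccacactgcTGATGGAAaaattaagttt
The first base of the core lay 2 bases before the start site in CARS1 (chr11:3057407-3057436), 13 before it in IARS1 (chr9:92293692-92293721) and 4 before it in MARS1 (chr12:57488053-57488082). It lay 2 bases after the start in TARS1 (chr5:33440956-33440985) and 14 after it in NARS1 (chr18:57621804-57621833). In GARS1 it lay 33 bases before the start (chr7:30594834-30594863). The cores of AARS1 (chr16:70289675-70289704) and YARS2 (chr12:32756076-32756105) lay farthest away, 187 and 197 bases before the start. The first 7 genes listed are all cytosolic, and in 6 of the stretches shown the core reads TTGCATCA or its reverse complement. A match of letters is a description and was not tested as a binding site.

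WARS1, which makes the tryptophanyl enzyme and is known to be induced by interferon-gamma, carried other letters. A window of WARS1 (chr14:100375298-100375597) held the GAS element TTCNNNGAA, found in 7.66% of all windows. It also held the core of the ISRE, the interferon-stimulated response element, found in 3.57%. Another window of WARS1 (chr14:100376278-100376577) held neither. The matches are printed because WARS1 was among the cytosolic genes that differed most between Baituling and the other injections.
WARS1 GAS: gctcaagtgtTTCTGAGAAtctgggtgatt
WARS1 ISRE: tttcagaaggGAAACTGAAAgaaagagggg
The GAS match began 142 bases before the start site of the window that held it (chr14:100375470-100375499) and the ISRE match 55 before it (chr14:100375383-100375412). The GAS letters were also found in windows of CARS1, TARS1, PARS2 and WARS2, and the ISRE letters in windows of EARS2. The E-box CACGTG, the site of MYC, was present in at least 1 window of 4 genes, CARS2, EARS2, IARS1 and MARS2. Counted by window and not by gene, it was in 7.26% of all windows.

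All 37 genes passed the filter on low counts, with 47 counts per library for SARS2 at the least and 10350 for TARS1 at the most. Levels were compared between genes per kilobase of the canonical transcript. SARS1 was the highest with a mean of 163.4 CPM per kb over the 9 libraries, followed by FARSA at 159.7, TARS1 at 158.5 and GARS1 at 134.8, and the ranges of the first 3 over libraries overlapped. The mitochondrial genes lay lower, between 1.32 for SARS2 and 17.8 for CARS2 and TARS2, apart from IARS2 at 59.0. IARS2, the mitochondrial isoleucyl gene, thus lay beside its cytosolic counterpart IARS1 at 58.4 CPM per kb. FARSB was the lowest cytosolic gene at 8.0 CPM per kb, on a canonical transcript of 6761 bases against 1811 bases for FARSA, which makes the other subunit of the same enzyme.

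**Figure D1:**
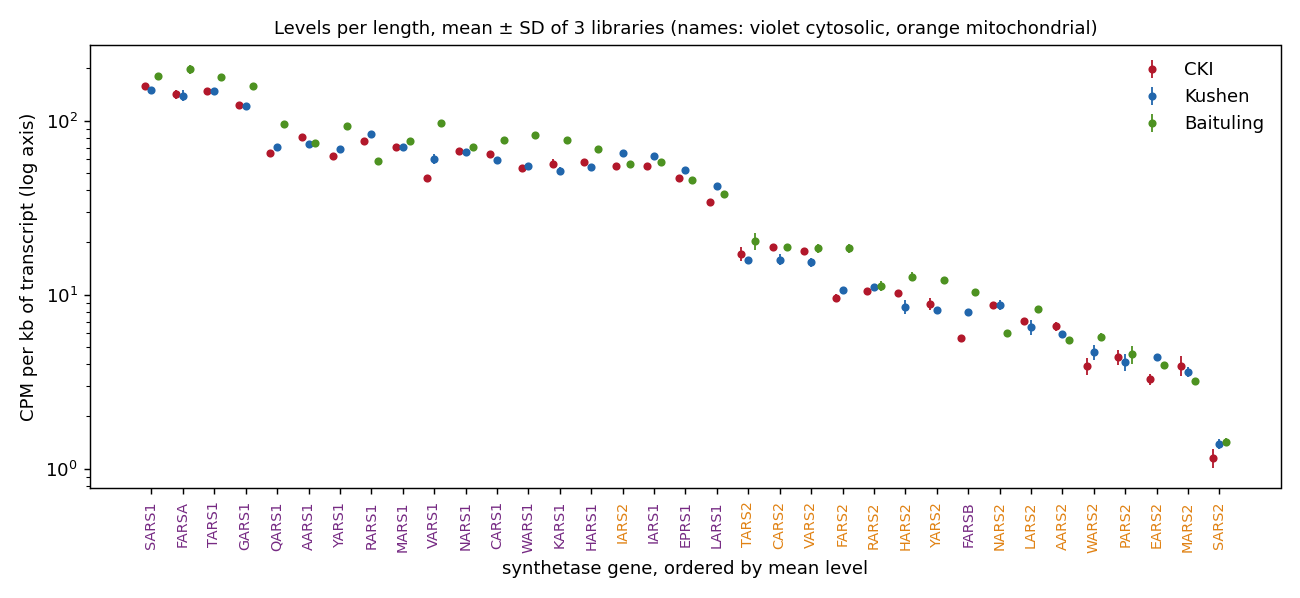
Level of 35 of the 37 synthetase genes in CPM per kb of canonical transcript (log axis), with points for the mean and bars for the SD of 3 libraries in CKI, Kushen and Baituling. Violet names are cytosolic and orange names mitochondrial, and IARS2 is the only mitochondrial gene among the cytosolic levels, while FARSB lies among the mitochondrial ones.

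The first comparison, CKI against Baituling, asks what the Kushen part of the combined injection changes. Most cytosolic synthetase genes were lower in CKI: 15 of 20 passed the test in that direction, among them VARS1, FARSB, WARS1, YARS1 and QARS1. RARS1, at a log2 fold change of 0.38 ± 0.04 (SE), and AARS1, at 0.10 ± 0.04, were higher. Of the 17 mitochondrial genes 8 were lower, led by FARS2, and 3 were higher, NARS2, MARS2 and AARS2. The median log2 fold change was -0.27 for the cytosolic and -0.22 for the mitochondrial genes, against 0.03 over all genes tested. Over those 14195 genes 39.1% were higher and 37% lower at the same threshold, an adjusted p under 0.05 in edgeR's quasi-likelihood test. VARS1 alone also passed the fold threshold of the study, a log2 fold change past 1 in either direction, which 11.2% of all genes passed as higher and 7.91% as lower. The 3 libraries of CKI did not overlap those of Baituling for 31 of the 37 genes, against 78.3% of all genes. In bulk RNA a change in the make-up of the culture and a change in RNA per cell cannot be told apart.

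These differences are relative to the bulk of the genes, and the scaling matters for them. The cytosolic synthetase genes together took 0.411% to 0.431% of all counts in every one of the 9 libraries, so that their share of the library hardly moved. TMM scaled the Baituling libraries with factors of 0.877 to 0.900 and the CKI libraries with 1.075 to 1.099. With plain library totals the median of all genes rose by 0.29 in CKI against Baituling and by 0.21 between Kushen and Baituling. The cytosolic genes were then split evenly in CKI against Baituling, with 8 higher and 8 lower, and the mitochondrial genes gave 7 higher and 3 lower, while 57.0% of all genes were higher and 22.6% lower. Of the genes called on the TMM scale, CARS1, HARS1, LARS1, MARS1, SARS1, TARS1, EARS2, LARS2 and TARS2 had a value of the opposite sign under library totals in that comparison. Genes not called on the TMM scale turned as well, IARS1, NARS1, IARS2, PARS2, RARS2 and VARS2 among them, with NARS1 going from -0.06 to 0.22. Set against the median of all genes, 31 of the 37 genes lay below it in CKI against Baituling and 28 between Kushen and Baituling. A scaling moves the genes and that median together, so these counts stay alike by construction under TMM, library totals, upper quartile and DESeq2 scaling.

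**Figure D2:**
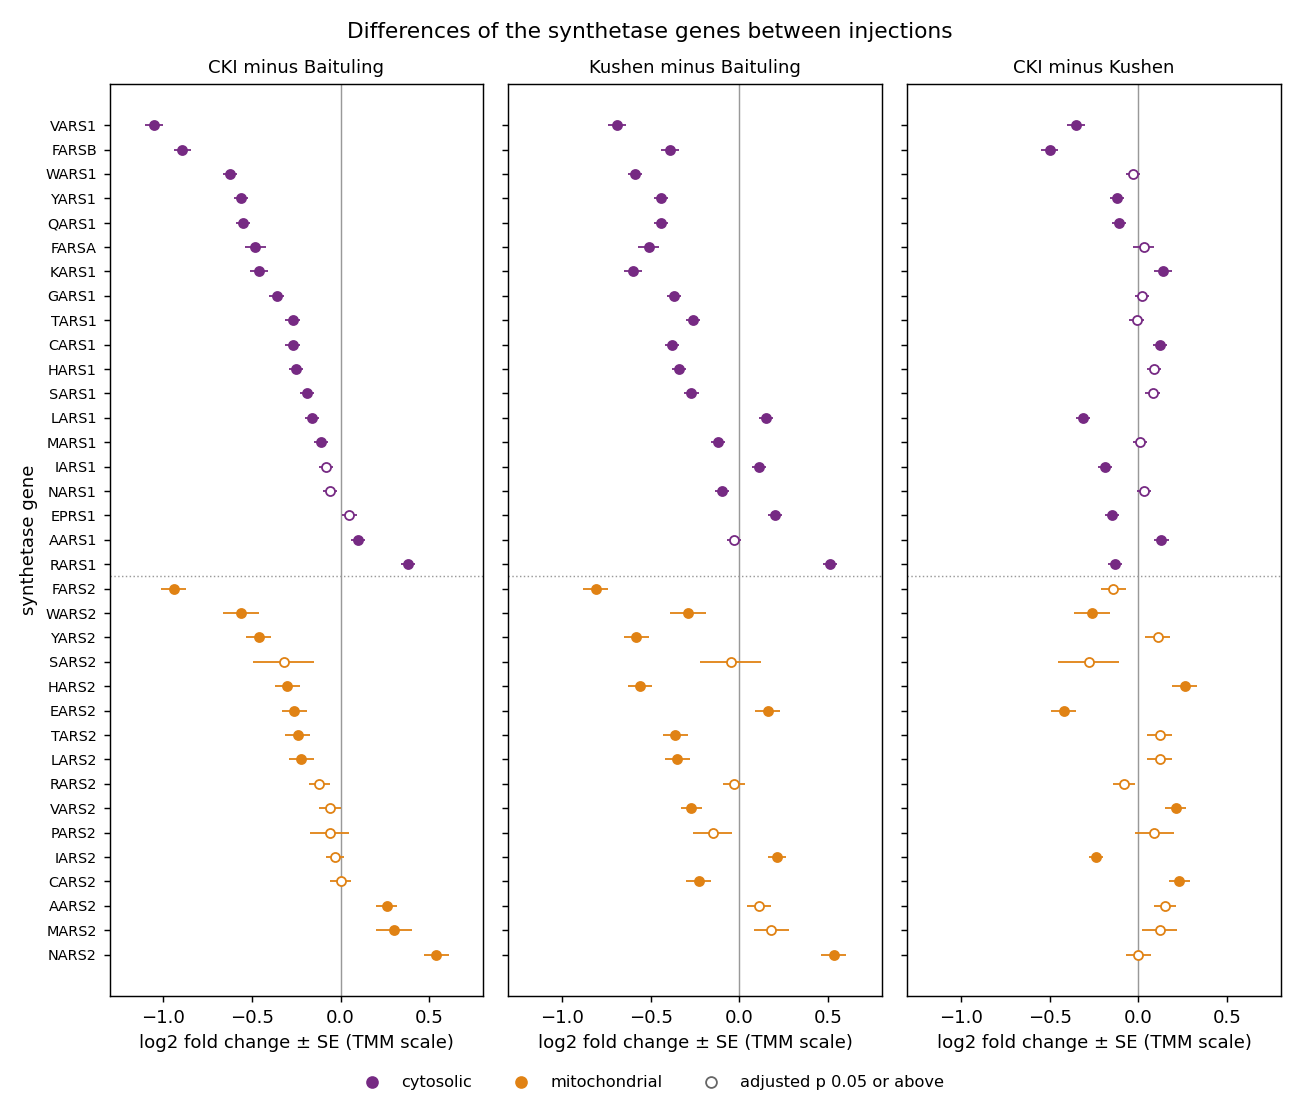
Log2 fold change (points) and SE (bars) of 35 of the 37 synthetase genes on the TMM scale in CKI against Baituling, Kushen against Baituling and CKI against Kushen, with cytosolic genes above the dotted line and mitochondrial genes below it. Filled points have an adjusted p under 0.05 and open points do not, and most points lie left of 0 in both comparisons with Baituling, with VARS1 at -1.05 the farthest.

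The single injections were then set against each other. Here 15 of the 20 cytosolic genes were lower in Kushen and 4 were higher, RARS1 at 0.51 ± 0.04, EPRS1 at 0.20 ± 0.04, LARS1 and IARS1. Of the mitochondrial genes 9 were lower and 3 higher, NARS2, IARS2 at 0.21 ± 0.05 and EARS2. The medians were -0.31 for the cytosolic and -0.20 for the mitochondrial genes, against 0.02 over all genes. Of all genes 35.6% were higher and 36.1% lower. No synthetase gene passed the fold threshold, which 8.5% of all genes passed as higher and 6.73% as lower. That count of 0 from edgeR was also 0 at an unadjusted p under 0.05 and in DESeq2. The libraries of Kushen and Baituling did not overlap for 32 of the 37 genes, against 73.1% of all genes. Library totals gave 7 cytosolic genes higher with 10 lower and 6 mitochondrial genes higher with 3 lower, against 50.6% of all genes higher and 24.6% lower, and MARS1 and NARS1 were among the called genes whose sign turned. This comparison and the previous one share the Baituling libraries.

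CKI against Kushen asks what the Baituling part of the combined injection changes, and here the differences were smaller. Of the cytosolic genes 9 were lower in CKI and 3 higher, AARS1 at 0.13 ± 0.04, CARS1 at 0.12 ± 0.04 and KARS1. Of the mitochondrial genes 4 were lower, among them EARS2, WARS2 and IARS2, and 3 were higher, HARS2, CARS2 at 0.23 ± 0.06 and VARS2. The medians were -0.02 for the cytosolic and 0.09 for the mitochondrial genes, against 0.01 over all genes, and values ran from -0.50 to 0.26. Of all genes 19.6% were higher and 20.2% lower. No synthetase gene passed the fold threshold, which 1.7% of all genes passed as higher and 0.197% as lower, and the count was again 0 at an unadjusted p under 0.05 and in DESeq2. The libraries did not overlap for 21 of the 37 genes, against 49.5% of all genes. With library totals, 6 cytosolic genes were higher and 5 lower, and 7 mitochondrial genes were higher and 2 lower, while of all genes 29.7% were higher and 12.9% lower.

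VARS1 (chromosome 6, 31745295 to 31763529, build GRCh37), which makes the cytosolic valyl enzyme, differed most. It was at 190.6, 190.8 and 200.0 CPM in the CKI libraries, at 230.2, 255.3 and 258.1 CPM in the Kushen libraries and at 414.7, 395.5 and 391.5 CPM in the Baituling libraries. The 3 groups did not overlap, with Baituling highest and CKI lowest. The log2 fold change was -1.05 ± 0.05 (SE, adjusted p 1.39e-13) in CKI against Baituling, -0.69 ± 0.05 (8.76e-11) in Kushen against Baituling and -0.35 ± 0.05 (9e-06) in CKI against Kushen. In the first of these it was -0.76 under library totals and no longer past the fold threshold. VARS2, the mitochondrial valyl gene, went the other way between CKI and Kushen, at 0.21 ± 0.06 (adjusted p 0.00707).

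FARSB and FARSA make the beta and alpha subunits of the cytosolic phenylalanyl enzyme, which works as a tetramer of both. FARSB (chromosome 2, 223431618 to 223520811) was at 37.4, 39.3 and 37.4 CPM in CKI, at 55.6, 54.1 and 51.4 CPM in Kushen and at 70.6, 70.4 and 70.8 CPM in Baituling. Again no groups overlapped. It differed by -0.89 ± 0.05 (adjusted p 3.65e-12) in CKI against Baituling, by -0.39 ± 0.05 (5.31e-07) in Kushen against Baituling and by -0.50 ± 0.05 (3.27e-07) in CKI against Kushen. FARSA was also lower in CKI and Kushen than in Baituling, by -0.48 ± 0.06 and -0.51 ± 0.06, but its difference between CKI and Kushen was 0.03 ± 0.06 (adjusted p 0.755). A ratio of the subunits within a library does not depend on library scaling. There were 6.39 to 7.2 FARSA counts per FARSB count in CKI, against 4.83 to 5.42 in Baituling and 4.17 to 5.01 in Kushen, so that CKI stood above both single injections and those overlapped. FARS2 (chromosome 6, 5261277 to 5829425), the mitochondrial phenylalanyl gene, is a single-subunit enzyme. It was at 17.1, 15.4 and 15.9 CPM in CKI, at 18.1, 17.0 and 18.1 CPM in Kushen and at 33.0, 30.3 and 29.7 CPM in Baituling. Baituling lay apart from the other groups, which overlapped. The differences were -0.94 ± 0.07 (adjusted p 2.32e-10) in CKI against Baituling and -0.81 ± 0.07 (2.84e-09) between Kushen and Baituling.

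WARS1 (chromosome 14, 100800127 to 100843142) showed a step between Baituling and the other injections. Its levels were 139.9, 140.3 and 143.1 CPM in CKI, 140.5, 152.2 and 140.1 CPM in Kushen and 221.0, 221.5 and 210.2 CPM in Baituling. CKI and Kushen overlapped and both lay below Baituling. The difference was -0.62 ± 0.04 (adjusted p 1.1e-10) from CKI to Baituling and -0.59 ± 0.04 (3.38e-10) from Kushen to Baituling. YARS1 and QARS1, the tyrosyl and glutaminyl genes, had differences of like size, at -0.56 ± 0.04 and -0.55 ± 0.04 in CKI and at -0.44 ± 0.04 for both in Kushen. WARS2, the mitochondrial tryptophanyl gene, was at 9.57, 10.9 and 12.1 CPM in CKI, at 14.1, 11.6 and 13.4 CPM in Kushen and at 16.0, 16.8 and 15.2 CPM in Baituling. Baituling lay above both other groups, and CKI and Kushen overlapped. WARS2 differed by -0.56 ± 0.10 (adjusted p 3.75e-05) in CKI against Baituling and by -0.29 ± 0.10 (0.0104) between Kushen and Baituling. The second of these was -0.21 and did not pass without Kushen replicate 2, nor under library totals at -0.08. Its difference of -0.26 ± 0.10 in CKI against Kushen (adjusted p 0.037) was lost in 6 of 17 alternatives, 4 of them the removal of a library: -0.18 without CKI replicate 1, -0.27 without CKI replicate 2, -0.20 without Kushen replicate 1 and -0.26 without Kushen replicate 3.

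KARS1 and GARS1 each make both the cytosolic and the mitochondrial enzyme, in alternative forms from the same gene. KARS1 (chromosome 16, 75661372 to 75682541), the lysyl gene, was at 109.6, 108.8 and 120.3 CPM in CKI, at 103.3, 107.4 and 96.2 CPM in Kushen and at 157.1, 157.9 and 150.6 CPM in Baituling. All 3 groups were apart, with Kushen lowest. It differed by -0.46 ± 0.05 (adjusted p 7.88e-08) in CKI against Baituling and by -0.60 ± 0.05 (2.2e-09) between Kushen and Baituling. Its difference of 0.14 ± 0.05 in CKI against Kushen (adjusted p 0.0306) did not pass without CKI replicate 3 or without Kushen replicate 3, at 0.09 each time, nor in DESeq2 at 0.13. KARS1 shares 871 bases with TERF2IP on the opposite strand, which had a mean of 1486 counts over the 9 libraries. GARS1 (chromosome 7, 30620149 to 30673649), the glycyl gene, was at 292.0, 301.6 and 311.1 CPM in CKI, at 299.4, 300.9 and 294.5 CPM in Kushen and at 394.5, 371.8 and 390.9 CPM in Baituling. Baituling stood above the other groups, which overlapped. The differences were -0.36 ± 0.04 (adjusted p 1.63e-07) and -0.37 ± 0.04 (1.09e-07), and the first was -0.07 and did not pass under library totals.

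**Figure D3:**
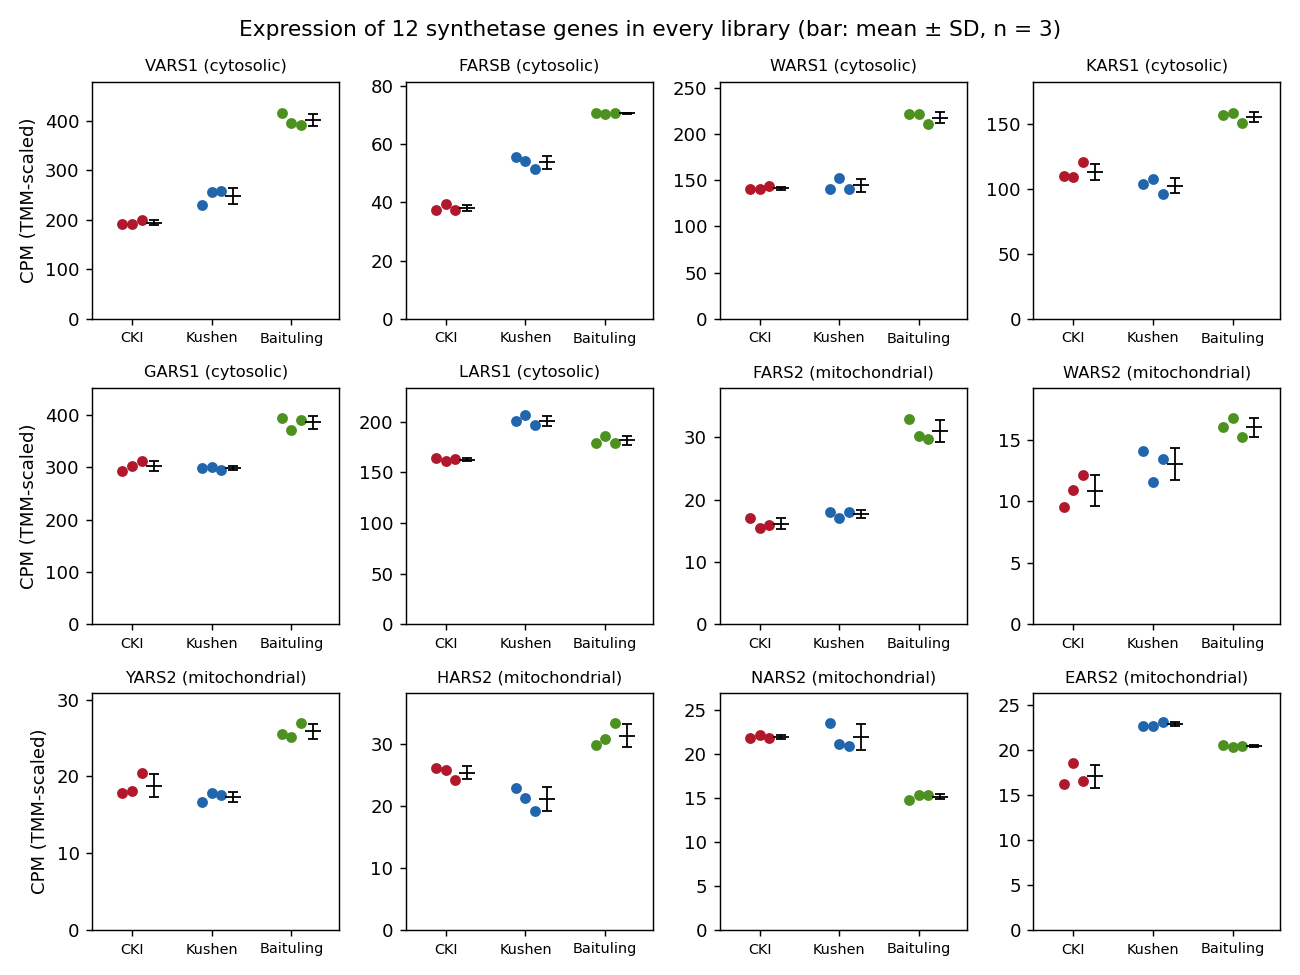
CPM on the TMM scale of 12 synthetase genes in each of the 9 libraries, with points for the 3 libraries of CKI, Kushen and Baituling, black bars for the mean ± SD, and each axis starting at 0. Baituling is the highest group for VARS1, FARSB, WARS1, KARS1, GARS1, FARS2, WARS2, YARS2 and HARS2, and the lowest for NARS2, while Kushen is the highest for LARS1 and EARS2.

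The genes of the multi-synthetase complex did not all move with the other cytosolic genes. The enzymes of 8 genes sit in the complex, among them EPRS1, KARS1, LARS1 and RARS1. In Kushen against Baituling 4 of them were higher and 4 lower, with a median of -0.01, while of the 12 genes outside the complex none was higher and 11 were lower, with a median of -0.38. In CKI against Baituling the complex gave 1 higher and 5 lower with a median of -0.14, and the others 1 higher and 10 lower with a median of -0.31. In CKI against Kushen 6 of the 8 complex genes were lower and 1 was higher, at a median of -0.14, while the others gave 3 lower and 2 higher at 0.02. Under library totals the complex gave 5 higher and 2 lower in Kushen against Baituling and the others 2 higher and 8 lower, with medians of 0.21 and -0.17. The order of the classes thus stayed, while the complex went from an even split to mostly higher. The median of all genes was then 0.23. In CKI against Baituling they gave 5 higher and 3 lower against 3 higher and 5 lower. In CKI against Kushen the complex then gave 1 higher and 3 lower at a median of -0.06, and the others 5 higher and 2 lower at 0.10. The shares of all genes called in each comparison are those given above. No test was made between these classes. RARS1 (chromosome 5, 167913456 to 167946306), the arginyl gene, was the complex gene that stood highest against Baituling. It was at 161.4, 166.9 and 160.6 CPM in CKI, at 184.1, 179.4 and 170.9 CPM in Kushen and at 127.5, 124.7 and 123.8 CPM in Baituling, with no overlap between any groups.

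LARS1 (chromosome 5, 145490129 to 145562259) makes the leucyl enzyme, also known as a leucine sensor of the mTORC1 pathway. It was at 163.8, 160.9 and 162.7 CPM in CKI, at 200.7, 206.1 and 196.3 CPM in Kushen and at 179.3, 186.1 and 178.9 CPM in Baituling. The groups did not overlap, and Kushen was highest. LARS1 differed by -0.31 ± 0.04 (adjusted p 6.71e-06) in CKI against Kushen, by 0.15 ± 0.04 (0.00265) in Kushen against Baituling and by -0.16 ± 0.04 (0.00141) in CKI against Baituling, the last of which turned to 0.13 under library totals. Mitochondrial LARS2 was at 32.8, 35.6 and 33.2 CPM in CKI, at 28.6, 34.5 and 30.1 CPM in Kushen and at 39.9, 38.9 and 39.9 CPM in Baituling. Between Kushen and Baituling it differed by -0.35 ± 0.07 (adjusted p 0.000114), the opposite of LARS1, though at -0.14 it did not pass under library totals. Its difference in CKI against Kushen was 0.12 ± 0.07 (adjusted p 0.144), and it passed at 0.21 without Kushen replicate 2.

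The asparaginyl and methionyl pairs also split between compartments. Mitochondrial NARS2 (chromosome 11, 78146666 to 78286239) was at 21.8, 22.2 and 21.8 CPM in CKI, at 23.6, 21.2 and 20.9 CPM in Kushen and at 14.8, 15.4 and 15.3 CPM in Baituling. CKI and Kushen overlapped and both lay above Baituling. NARS2 was higher by 0.54 ± 0.07 (adjusted p 1.23e-06) in CKI and by 0.53 ± 0.07 (1.66e-06) in Kushen than in Baituling, and it kept that call in all 17 alternatives of each comparison. Cytosolic NARS1 was at 180.3, 188.3 and 188.9 CPM in CKI, at 189.0, 178.3 and 178.0 CPM in Kushen and at 194.7, 190.3 and 197.7 CPM in Baituling. It differed by -0.06 ± 0.04 in CKI against Baituling (adjusted p 0.172). Its difference of -0.10 ± 0.04 in Kushen against Baituling (adjusted p 0.0477) lay at the edge of the threshold and was lost or turned in 14 of 17 alternatives, with adjusted p between 0.0123 and 0.592. Those included the removal of any 1 library apart from Kushen replicate 1 and Baituling replicate 2, with values of -0.07 to -0.10.

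MARS2, the mitochondrial methionyl gene, was at 10.1, 13.0 and 12.5 CPM in CKI, at 10.1, 11.4 and 11.2 CPM in Kushen and at 9.37, 9.98 and 9.50 CPM in Baituling. Its level exceeded that of Baituling in CKI by 0.30 ± 0.10 (adjusted p 0.0115), but at 0.23 it did not pass without CKI replicate 2. Cytosolic MARS1 (chromosome 12, 57869228 to 57911352) was at 198.7, 193.5 and 203.0 CPM in CKI, at 191.1, 204.3 and 197.7 CPM in Kushen and at 221.4, 207.2 and 215.2 CPM in Baituling. It was lower than in Baituling by -0.11 ± 0.04 (adjusted p 0.0215) in CKI and by -0.12 ± 0.04 (0.0181) in Kushen. The first call was lost at -0.10 without CKI replicate 2 and at -0.09 without Baituling replicate 1. The second was lost at -0.10 without Kushen replicate 1, at -0.11 without Kushen replicate 3 and at -0.09 without Baituling replicate 1. A minimum of 10 counts in every library also ended both calls, at -0.07 and -0.09, as did upper quartile scaling, at -0.04 and -0.05, and a fit of only Kushen and Baituling ended the second at -0.10. Under library totals they turned to 0.17 and 0.09. MARS1 shares 982 bases with DDIT3, the gene of the stress factor CHOP, on the opposite strand, and unstranded reads of the shared bases cannot be told apart. There were 21.1 to 27.4 MARS1 counts per DDIT3 count in Baituling, 8.7 to 10.6 in Kushen and 4.49 to 4.94 in CKI, and the part of DDIT3 reads in the MARS1 counts was not tested.

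Among the other mitochondrial genes, YARS2, HARS2 and EARS2 differed most. YARS2 (chromosome 12, 32880424 to 32908831), the tyrosyl gene, was at 17.8, 18.1 and 20.5 CPM in CKI, at 16.6, 17.8 and 17.6 CPM in Kushen and at 25.5, 25.1 and 27 CPM in Baituling. Baituling lay above both other groups. The differences were -0.46 ± 0.07 (adjusted p 8.85e-06) in CKI and -0.58 ± 0.07 (7.15e-07) in Kushen. YARS2 overlaps DNM1L on the opposite strand. HARS2 (chromosome 5, 140071015 to 140078890), the histidyl gene, was at 26.1, 25.7 and 24.1 CPM in CKI, at 22.9, 21.2 and 19.1 CPM in Kushen and at 29.8, 30.7 and 33.3 CPM in Baituling. The groups did not overlap, and CKI lay between the single injections. HARS2 differed by -0.56 ± 0.07 (adjusted p 9.27e-07) in Kushen against Baituling, by -0.30 ± 0.07 (0.000699) in CKI against Baituling and by 0.26 ± 0.07 (0.00732) in CKI against Kushen. The second was -0.02 and did not pass under library totals, and the last was 0.18 and did not pass without Kushen replicate 3. HARS2 shares 108 bases with HARS1, its neighbour on the opposite strand, and overlaps ZMAT2 on the same strand.

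EARS2 (chromosome 16, 23532075 to 23569052), the mitochondrial glutamyl gene, had the lowest level in CKI. It was at 16.2, 18.5 and 16.5 CPM there, at 22.7, 22.7 and 23.1 CPM in Kushen and at 20.5, 20.3 and 20.4 CPM in Baituling. No groups overlapped, and Kushen was highest. On the genome EARS2 shares 1242 bases with GGA2 on the same strand, which had a mean of 1240 counts over the 9 libraries. The part of GGA2 reads in the EARS2 counts was not tested. EARS2 differed in CKI by -0.42 ± 0.07 from Kushen (adjusted p 6.5e-05) and from Baituling by -0.26 ± 0.07 (0.00245), the latter turning to 0.03 under library totals. Its difference of 0.16 ± 0.07 in Kushen against Baituling (adjusted p 0.0397) was lost in 9 of 17 alternatives, among them the removal of any 1 Kushen or Baituling library, with values of 0.15 to 0.18. Of the mitochondrial genes not yet named, RARS2, PARS2 and SARS2 passed in no comparison. SARS2 was measured on 47 to 70 counts per library, with an SE of 0.17.

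The cytosolic and mitochondrial genes were then compared within each library, a difference that no library scaling can move. The mean log2 CPM of the cytosolic genes minus that of the mitochondrial genes was 2.96, 2.95 and 2.95 in CKI, 3.01, 3.04 and 3.00 in Kushen and 3.08, 3.10 and 3.12 in Baituling. The groups did not overlap, with the widest gap between compartments in Baituling and the narrowest in CKI. Summed over genes, the cytosolic set was at 4823 ± 64.6 CPM in Baituling, 4062 ± 58.8 in Kushen and 3918 ± 69.2 in CKI (SD, n = 3). The mitochondrial set was at 646 ± 7.23, 611 ± 7.0 and 591 ± 4.73 CPM in the same order. As a share of all counts, with no TMM scaling, the mitochondrial set was instead lowest in Baituling, at 0.0573% to 0.0577%. Its shares in Kushen, 0.0617% to 0.0643%, and in CKI, 0.064% to 0.0644%, overlapped. The mitochondrial genes made up 13.0% to 13.2% of the synthetase CPM in every CKI and Kushen library and 11.8% to 11.9% in every Baituling library. That difference rested on IARS2 for Kushen: without it, an alternative chosen after seeing the data, the share was 8.39% to 8.69% in Kushen and 8.36% to 8.65% in Baituling, which overlapped, and 9.06% to 9.34% in CKI. The gap between the mean log2 CPM values without IARS2 was 3.26 to 3.31 in Baituling, 3.2 to 3.25 in Kushen and 3.14 to 3.16 in CKI, still without overlap. The same gap without GARS1 and KARS1 was 3.07 to 3.10 in Baituling, 3.01 to 3.05 in Kushen and 2.94 to 2.95 in CKI. No p-value is given for these summed values.

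**Figure D4:**
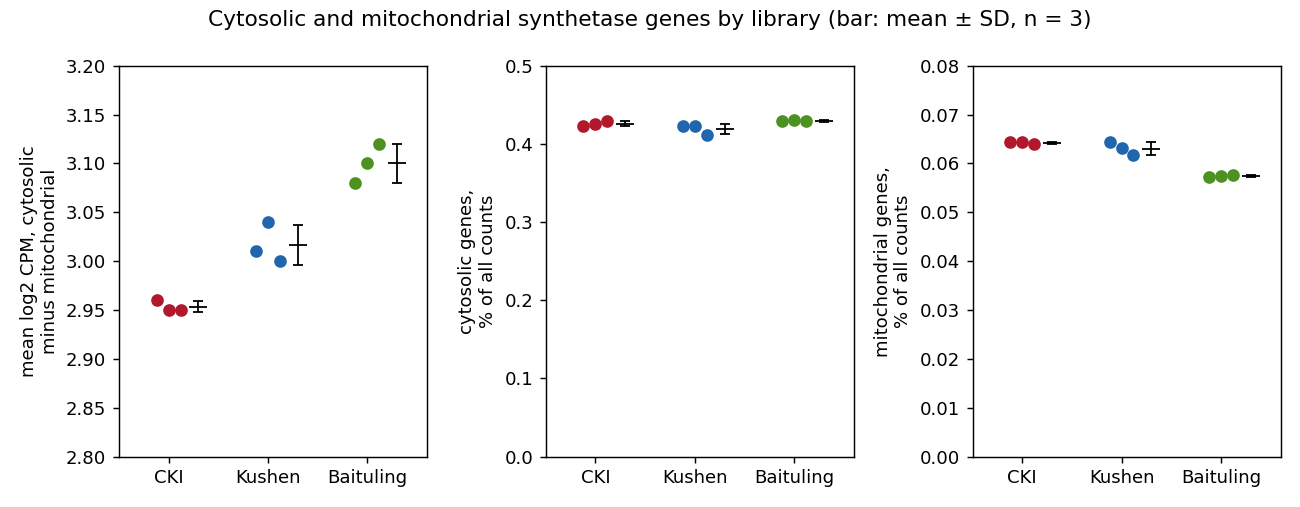
Left, mean log2 CPM of the 20 cytosolic minus the 17 mitochondrial synthetase genes in each library, on an axis that does not start at 0, and to the right the share of all counts, in percent, taken by the cytosolic and by the mitochondrial genes, on axes from 0. Points are the 3 libraries of CKI, Kushen and Baituling and black bars the mean ± SD, and the gap is widest in Baituling while the cytosolic share lies between 0.411% and 0.431% in all libraries.

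The order of the group means was counted over the genes. Baituling was the highest group for 15 of the 20 cytosolic and 11 of the 17 mitochondrial genes. Among the cytosolic genes CKI was the lowest group for 9 and Kushen for 9, and Baituling was the lowest for 2. The genes were also set against the structural classes of the enzymes. Lower in CKI than in Baituling were 11 of the 18 class I genes and 12 of the 18 class II genes, with medians of -0.19 and -0.29. Higher were 2 class I and 3 class II genes, while 37% of all genes were lower and 39.1% higher. EPRS1, which carries an enzyme of each class, was left out of these counts. Under library totals 9 class I genes were higher and 6 lower, and 5 class II genes were higher and 5 lower, with medians of 0.10 and 0.00. All genes were then 57.0% higher and 22.6% lower, with a median of 0.32. The median difference from Baituling was also set out by the presence of the TGATGNAA core among the cytosolic genes. The 7 genes with the core had a median of -0.11 in CKI against Baituling, from -0.36 for GARS1 to 0.10 for AARS1, the 9 with a window that lacked it a median of -0.46, and the 4 without a window a median of -0.50. The same medians in Kushen against Baituling were -0.12, -0.39 and -0.34, and in CKI against Kushen they were 0.02, -0.03 and -0.25. Under library totals the genes with the core turned to a median of 0.17 in CKI against Baituling and 0.09 between Kushen and Baituling, while those with a window that lacked it stayed negative, at -0.17 and -0.18. No test was made of this grouping.

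Genes of the amino acid response that are known to be regulated by ATF4 were examined as partners of the synthetases. All 29 genes of that list were tested. In CKI against Baituling 17 were lower and 10 higher, with a median of -0.30, while 37% of all genes were lower and 39.1% higher. In Kushen against Baituling 22 were lower and 6 higher, with a median of -0.55, beside 36.1% and 35.6% of all genes. In CKI against Kushen 15 were higher and 6 lower, with a median of 0.17, beside 19.6% and 20.2% of all genes. Under library totals these counts were 12 lower and 12 higher, 16 lower and 7 higher, and 17 higher and 4 lower. The shares of all genes were then 22.6% lower and 57.0% higher, 24.6% lower and 50.6% higher, and 29.7% higher and 12.9% lower. ATF4 itself was at 466 to 499 CPM in the Baituling libraries, and it was lower in CKI by -0.92 ± 0.04 (adjusted p 3.2e-13) and in Kushen by -0.76 ± 0.04 (7.67e-12). The genes past the fold threshold on the lower side in CKI against Baituling were SHMT2, which makes glycine and one-carbon units from serine, at -1.36 ± 0.05, PYCR1 of proline synthesis at -1.17 ± 0.06, PHGDH of serine synthesis at -1.14 ± 0.06 and the translation repressor EIF4EBP1 at -1.01 ± 0.06. Under library totals SHMT2 stayed past it at -1.08, while PYCR1 at -0.88, PHGDH at -0.85 and EIF4EBP1 at -0.72 did not. Further genes of the list, not past it on the TMM scale, then came past it on the higher side. In Kushen against Baituling PHGDH at -1.44 ± 0.07, the glutamine transporter SLC1A5 at -1.24 ± 0.05, SHMT2 at -1.16 ± 0.05 and the kinase-like TRIB3 at -1.06 ± 0.06 were past it, and under library totals SHMT2 at -0.95 and TRIB3 at -0.85 were not.

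Other genes of that list went the opposite way. The stress factor DDIT3 was higher than in Baituling by 2.21 ± 0.09 in CKI and by 1.21 ± 0.09 in Kushen, and the cystine transporter SLC7A11 by 1.80 ± 0.05 and 1.60 ± 0.05. STC2, a secreted glycoprotein, was higher by 1.80 ± 0.21 and 1.13 ± 0.23, on as few as 21 counts per library. ATF3, a stress-induced repressor, was higher in CKI by 1.24 ± 0.10 against Baituling and by 1.53 ± 0.10 against Kushen. DDIT3 and ATF3 were the 2 genes of the list past the fold threshold in CKI against Kushen. DDIT3, at 1.0 ± 0.07, lay at the very edge of that threshold.

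The scaffold genes of the complex and the other genes of tRNA charging gave mixed directions. AIMP2 was lower than in Baituling by -0.67 ± 0.06 (adjusted p 8.6e-09) in CKI and by -0.57 ± 0.06 (9.09e-08) in Kushen, AIMP1 was lower in CKI by -0.21 ± 0.06 but at 0.08 did not pass under library totals, and EEF1E1 was higher, by 0.26 ± 0.08 in CKI and 0.34 ± 0.08 in Kushen. None of the 3 scaffold genes passed in CKI against Kushen. Of 11 other charging and editing genes, 4 were higher and 4 lower in each comparison with Baituling, and 1 was higher and 1 lower in CKI against Kushen. Among all genes 39.1% were higher and 37% lower in CKI against Baituling, and 35.6% and 36.1% in Kushen against Baituling. The shares in CKI against Kushen were 19.6% and 20.2%. Under library totals 6 were higher and 2 lower in CKI against Baituling, 5 higher and 2 lower in Kushen against Baituling, and 3 higher and none lower in CKI against Kushen. All genes were then 57.0% higher and 22.6% lower, 50.6% and 24.6%, and 29.7% and 12.9% in the same order. TARS3, a further cytosolic threonyl gene outside the naming rule, was at 7.02, 7.01 and 7.03 CPM in CKI, at 5.87, 6.56 and 6.83 CPM in Kushen and at 2.63, 3.78 and 2.71 CPM in Baituling. It was higher than in Baituling by 1.21 ± 0.14 (adjusted p 1.84e-07) in CKI and by 1.08 ± 0.14 (1.3e-06) in Kushen, while TARS1 was lower by -0.27 ± 0.04 and -0.26 ± 0.04. DTD1, which removes D-amino acids from transfer RNA, was lower by -1.11 ± 0.05 in CKI and by -0.97 ± 0.05 in Kushen, which under library totals became -0.82 and -0.76. GATB and GATC, subunits of the amidotransferase that makes mitochondrial glutaminyl-tRNA, went in opposite directions, at -0.63 ± 0.07 and 0.53 ± 0.07 in CKI and at -0.57 ± 0.07 and 0.39 ± 0.07 in Kushen. QRSL1, the remaining subunit, differed by -0.14 ± 0.09 in CKI, which did not pass, and by -0.42 ± 0.09 in Kushen, where it was -0.21 and did not pass under library totals, and CKI stood above Kushen by 0.28 ± 0.09.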

How the data were processed

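Gene expression was measured by unstranded RNA sequencing in 9 libraries. The authors trimmed the reads with Trim Galore 0.3.7, aligned them with STAR 2.5.3a to build hg19 and deposited raw counts per gene, with no normalization. The counting program and annotation are not given in the sources used here, so reads shared by overlapping or similar genes may be assigned either way. Overlaps with neighbouring genes are stated above for some members only. Columns were assigned by treatment initial and replicate number. Repeats of an Ensembl gene (222 of 24566 rows) were dropped. Symbols, positions and canonical transcripts came from GENCODE on GRCh37. Library totals were 20144628 to 23782071 counts.

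Genes were kept by filterByExpr (14195 of 24344) and fitted in edgeR 4.0.16 (R 4.3.3) with TMM scaling, a quasi-likelihood test over all 9 libraries with group as the only term, and two-sided p-values Benjamini-Hochberg adjusted over all genes tested. The script was tested on simulated data. A gene is called higher or lower at an adjusted p under 0.05. Nothing shows at which step the replicates of a group were separated, so p-values measure the spread between these libraries. The chi-square per gene between replicates was 1.7 to 6.85, and no library was a copy of another. Replicate numbers are shared by the groups, but the deviations of same-numbered libraries correlated by only -0.0746 to 0.123, and they were not treated as pairs.

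The members and lists, which were the scaffold genes, other charging genes, ATF4-regulated genes and interferon-gamma genes, were chosen with earlier results of these data known. Values in every library are given for members past the fold threshold, for the 3 cytosolic and 3 mitochondrial members that differed most in a comparison among those called, for GARS1 and KARS1, and for amino acids whose cytosolic and mitochondrial genes were called in opposite directions against Baituling; RARS1 was added after its values were seen. List genes are named where they passed the fold threshold, and the scaffold genes, GATB, GATC and QRSL1 were added after their values were seen. Alternatives were library totals, upper quartile scaling, DESeq2 1.42.0, other filters, only the groups compared, a replicate block, the table as deposited, a test against the fold threshold, and the removal of each library. Protein sequences were not analysed here, and 2 members and some list genes are counted but not reported one by one.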

Additional observations from a re-analysis of the deposited data

How the results depend on the processing

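The scaling moved the results most. Under library totals, CKI against Kushen gave 6 cytosolic members higher and 5 lower and 7 mitochondrial members higher and 2 lower. CKI against Baituling gave 8 and 8 cytosolic and 7 and 3 mitochondrial members, and Kushen against Baituling gave 7 cytosolic members higher with 10 lower and 6 mitochondrial higher with 3 lower. Directions turned under library totals in CKI against Baituling for LARS1 (0.13), MARS1 (0.17), NARS1 (0.22), EARS2 (0.03) and LARS2 (0.06), and in Kushen against Baituling for MARS1 (0.09) and NARS1 (0.12). The shares of all genes called under library totals are those given above. Upper quartile scaling gave 5 mitochondrial members higher in Kushen against Baituling. It called 5706 of all 14195 genes higher there, against 5047 on the TMM scale. DESeq2 gave 1 cytosolic member higher in CKI against Kushen and 1 in CKI against Baituling, where no filter on low counts also gave 1. Over all genes DESeq2 called 2165 and 5121 higher in these comparisons, against 2783 and 5548 in edgeR. For the other filters and fits and the removal of libraries, counts over all genes are not given here. A minimum of 10 counts in every library gave 5 cytosolic members higher in CKI against Kushen, and a fit of only the groups compared gave 2 mitochondrial members lower there. No member was past the fold threshold in CKI against Baituling (0 in place of 1) under library totals, upper quartile scaling or a test set against that threshold.

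Without each library in turn, the members higher and lower in CKI against Kushen were 1 to 3 and 6 to 9 for the cytosolic and 2 to 4 and 2 to 4 for the mitochondrial genes. The cytosolic count higher was 1 without CKI replicate 3 or Kushen replicate 3, and the mitochondrial count lower was 2 without CKI replicate 1, CKI replicate 2 or Kushen replicate 3. In CKI against Baituling they were 1 to 2, 14 to 15, 2 to 3 and 7 to 8, with 1 cytosolic member higher without CKI replicate 2 or 3 or Baituling replicate 2 or 3. In Kushen against Baituling they were 3 to 4, 13 to 15, 2 to 3 and 8 to 9. The cytosolic minus the mitochondrial median ranged from -0.14 to -0.06, from -0.12 to -0.03 and from -0.15 to -0.07 in the same order of comparisons. That value, -0.11, -0.04 and -0.11 as reported here, was -0.17 in CKI against Kushen and -0.06 in Kushen against Baituling without GARS1 and KARS1, and -0.06 in CKI against Kushen and -0.15 in CKI against Baituling with means in place of medians.

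Same-numbered libraries were not treated as pairs in the reported fit. With the replicate block the cytosolic members lower were 7, 15 and 14 in the same order of comparisons and the mitochondrial 3, 8 and 9, and of the named calls the block lost NARS1 and EARS2 in Kushen against Baituling. Apart from the scalings' own construction, the cause of these changes was not tested. SARS2 had the fewest counts, 47 to 70 per library.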

Other observations

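Interferon-gamma response genes were examined beside WARS1, since that synthetase is a known member of the response. Of 16 genes listed, 14 were tested, and CXCL10 and IDO1 did not pass the filter on low counts. In each comparison with Baituling 5 were higher and 7 lower, with medians of -0.10 in CKI and -0.12 in Kushen, and in CKI against Kushen 6 were higher and 2 lower. Among all genes 39.1% were higher and 37% lower in CKI against Baituling, and 35.6% and 36.1% in Kushen against Baituling. The shares in CKI against Kushen were 19.6% and 20.2%. Under library totals 9 were higher and 4 lower in CKI against Baituling, and 6 higher and 5 lower in Kushen against Baituling. All genes were then 57.0% higher and 22.6% lower, and 50.6% and 24.6%, in the same order. The genes past the fold threshold were lower in CKI and Kushen than in Baituling, as WARS1 was. SOCS1, a feedback inhibitor of the pathway, was at 3.49, 3.83 and 3.2 CPM in CKI, at 2.17, 2.79 and 2.44 CPM in Kushen and at 19.6, 17.1 and 16.5 CPM in Baituling, a log2 fold change of -2.34 ± 0.11 in CKI and -2.84 ± 0.12 in Kushen. The immunoproteasome genes PSMB8 and PSMB9 differed by -1.37 ± 0.05 and -1.11 ± 0.06 in CKI and by -1.15 ± 0.05 and -1.25 ± 0.06 in Kushen, of which PSMB9 in CKI, at -0.82, and PSMB8 in Kushen, at -0.94, were not past the fold threshold under library totals.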
